A study of Arabidopsis thaliana with 14 samples.

Results

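The region described here is the central part of *FLC* that runs from exon 2 to exon 6, with introns 2, 3, 4 and 5 between the exons. Fragments of micrococcal nuclease (MNase) digestion were taken as members when their midpoint fell between the first base of exon 2 and the last base of exon 6, at chr5:3174818-3175661 of TAIR10. That is an interval of 844 bp, 8.82% of the *FLC* target region, lying 3787 to 4630 bp downstream of the transcription start site (TSS). Of 1039765 fragments listed over the 14 libraries, 1 for each start and end in a library, 126862 had their midpoint in the interval, and these had 25573 different pairs of start and end out of 241708 for the whole target region.

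Targeted MNase-seq was made from whole *Arabidopsis thaliana* seedlings. WT FRI is Col-0 carrying an active *FRIGIDA* allele introgressed from San Feliu-2, and *vrn1-4* FRI carries in addition a *vrn1* allele from fast-neutron mutagenesis. Warm samples had grown for 10 days at 22 °C, with 3 libraries in each genotype, and 1W cold samples had then spent 1 further week at 5 °C, with 4 libraries in each genotype. All 4 groups therefore carry active *FRIGIDA* and differ in *VRN1*, in the week of cold and in age by that week, so the cold and the extra week cannot be told apart. Whole seedlings mix cell types, so every profile is an average over them. Values of libraries are listed in the order of their replicate numbers.

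*FLC* encodes a MADS-box transcription factor that represses flowering, and prolonged cold silences it through Polycomb proteins, a process called vernalization. VRN1 is a plant-specific DNA-binding protein of the B3 family that is needed for stable silencing. In genes of this class the first exon encodes the DNA-binding MADS domain, while the exons that follow encode the regions through which the proteins pair with each other. MNase digests the DNA between nucleosomes, so a fragment is a stretch of protected DNA and its midpoint marks the centre of that stretch.

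*FLC* is transcribed from the minus strand, and its 7 exons are numbered in that direction. In the interval the 5 exons hold 304 bases with a GC content of 43.4%, and the 4 introns hold 540 bases with a GC content of 34.8%, against 32.9% for the whole target region. The target region was captured by 237 baits of 80 nt, of which 23 reach into the interval. All of the bait sequences matched the reference genome.

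The midpoint profile averaged over all libraries was smoothed over 51 bp, and lower maxima under 100 bp from a higher one were left out. This gave 7 local maxima in the interval, numbered from the TSS side. The maxima lay in exon 2 (3800 bp from the TSS), intron 2 (3984 bp), intron 3 (4168 bp), intron 4 (4294 bp), intron 5 next to exon 5 (4395 bp), intron 5 (4495 bp) and exon 6 (4620 bp). Neighbouring maxima were thus 100 to 184 bp apart, with the lower limit set by that rule. Full nucleosomes, with 147 bp each, would overlap if centred on neighbouring maxima closer than that. The sequences that follow are those of the highest maximum (position 2), of the maximum with the longest A or T run (position 3), of the 2 maxima on either side of exon 5 (positions 4 and 5), and of exon 6, the exon with the fewest midpoints. They are given in the direction of *FLC* transcription, 5′ to 3′, from the TAIR10.1 assembly, whose chromosome 5 matches TAIR10 at all baits, with exon bases in capitals. Positions are 147 bp centred on the maximum and exon 6 has 60 bp on either side.
Position 2, chr5:3175391-3175537: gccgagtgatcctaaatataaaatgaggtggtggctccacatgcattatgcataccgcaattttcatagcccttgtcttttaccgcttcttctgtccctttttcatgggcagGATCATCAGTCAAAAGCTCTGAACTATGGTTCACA
Position 3, chr5:3175207-3175353: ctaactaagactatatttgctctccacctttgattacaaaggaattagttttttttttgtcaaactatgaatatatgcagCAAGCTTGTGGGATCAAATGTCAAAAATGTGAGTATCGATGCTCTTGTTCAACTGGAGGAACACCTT
Position 4, chr5:3175081-3175227: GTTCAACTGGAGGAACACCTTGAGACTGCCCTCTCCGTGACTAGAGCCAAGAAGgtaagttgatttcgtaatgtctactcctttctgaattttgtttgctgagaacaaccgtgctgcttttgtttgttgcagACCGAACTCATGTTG
Position 5, chr5:3174980-3175126: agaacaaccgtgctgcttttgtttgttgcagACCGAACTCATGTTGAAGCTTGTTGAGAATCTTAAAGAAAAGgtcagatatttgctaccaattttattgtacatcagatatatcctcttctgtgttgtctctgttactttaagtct
Exon 6 with flanks, chr5:3174758-3174919: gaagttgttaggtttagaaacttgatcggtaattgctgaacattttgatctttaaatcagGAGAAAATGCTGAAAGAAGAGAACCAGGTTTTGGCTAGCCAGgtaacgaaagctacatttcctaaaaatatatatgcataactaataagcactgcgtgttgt

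The GC content of these stretches was 43.5% at position 2, 34.7% at position 3, 44.9% at position 4 and 36.1% at position 5, against a median of 32.7% over the 9422 stretches of 147 bp in the target region. The longest run of a single base A or T was 10 at position 3, 5 at position 2 and in the exon 6 stretch, and 4 at positions 4 and 5. A run of at least 5 A or 5 T on either strand was present in 67.3% of all stretches of the same length. Positions 4 and 5 lacked such a run and position 3 held 2 of them.

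WT FRI 1W cold replicate 1 stood apart from its group. Over the interval, its profile of midpoints, averaged over 11 bp, had a median correlation of 0.869 with the 3 other libraries of its group and 0.933 with the 7 *vrn1-4* FRI libraries, whereas the 3 others had 0.981 to 0.985 within the group and 0.846 to 0.858 with *vrn1-4* FRI. WT FRI warm replicate 2 also had a lower median with its own group (0.832) than with *vrn1-4* FRI (0.846), and it had the fewest fragments in the interval, 1983 against 3827 to 13816 in the others. The points of these correlations are neighbouring bases of 1 locus and share the base composition of the DNA. The *VRN1* gene lies outside the captured *FLC* region, so genotypes could not be checked from these files. Counts of calls that change without either library are given with and without it. Ranges over every left-out library are given at the end.

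Fragments were denser in the interval than over the rest of *FLC* in all 14 libraries. The deposited value of a fragment is its fraction of all *FLC* fragments of its library, so a gain or loss of nucleosomes over the entire locus does not show in a share. The interval held 13.6 to 17.1% of the fragments (median 15.2%), or 1.61 to 2.03% per 100 bp, against 0.9503 to 0.9909% per 100 bp over the rest of the target region. The density was 1.62 to 2.13 times that of the rest, a mean log2 ratio of 0.90 ± 0.11 (SD, n = 14 libraries), with p = 0.000122 in a two-sided permutation test over all sign flips within libraries, which is the smallest p it can give. How evenly the baits captured the region was not measured here.

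The parts of the interval differed widely in density, and the order did not follow exons and introns. Over all libraries, intron 4 (78 bp), exon 5 (42 bp) and intron 2 (178 bp) had means of 2.72 ± 0.41, 2.64 ± 0.46 and 2.59 ± 0.41% of *FLC* fragments per 100 bp (SD, n = 14), with 2.16 ± 0.31% in exon 3, 1.84 ± 0.14% in intron 5 and 1.34 ± 0.19% in exon 2. The order of the first 4 of these changed with genotype. Exon 5 had the highest mean density in WT FRI, with 2.97 ± 0.43% per 100 bp in the warm (n = 3) and 2.89 ± 0.36% in the cold (n = 4), whereas in *vrn1-4* FRI it had 2.46 ± 0.54% in the warm and 2.28 ± 0.25% in the cold, the latter below the mean of exon 3 (2.39 ± 0.19%). In *vrn1-4* FRI intron 4 was highest in the warm (3.34 ± 0.24%) and intron 2 in the cold (2.94 ± 0.16%). Exon 4 and intron 3, which adjoin each other, had similar means over all libraries, 0.93 ± 0.18 and 0.90 ± 0.22% per 100 bp, but not within groups. In *vrn1-4* FRI exon 4 was denser than intron 3 in every library, with 1.08 to 1.15% against 0.654 to 0.711% in the warm and 0.806 to 1.16% against 0.700 to 0.784% in the cold. In WT FRI 1W cold the mean of intron 3 was the higher one, 1.15 ± 0.21 against 0.75 ± 0.15%, as it was in 3 of the 4 libraries (all but replicate 1), and in WT FRI warm the parts overlapped. Exon 6 was far below every other part, with 0.11 ± 0.02% per 100 bp and at most 0.149% in any library.

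**Figure D1:**
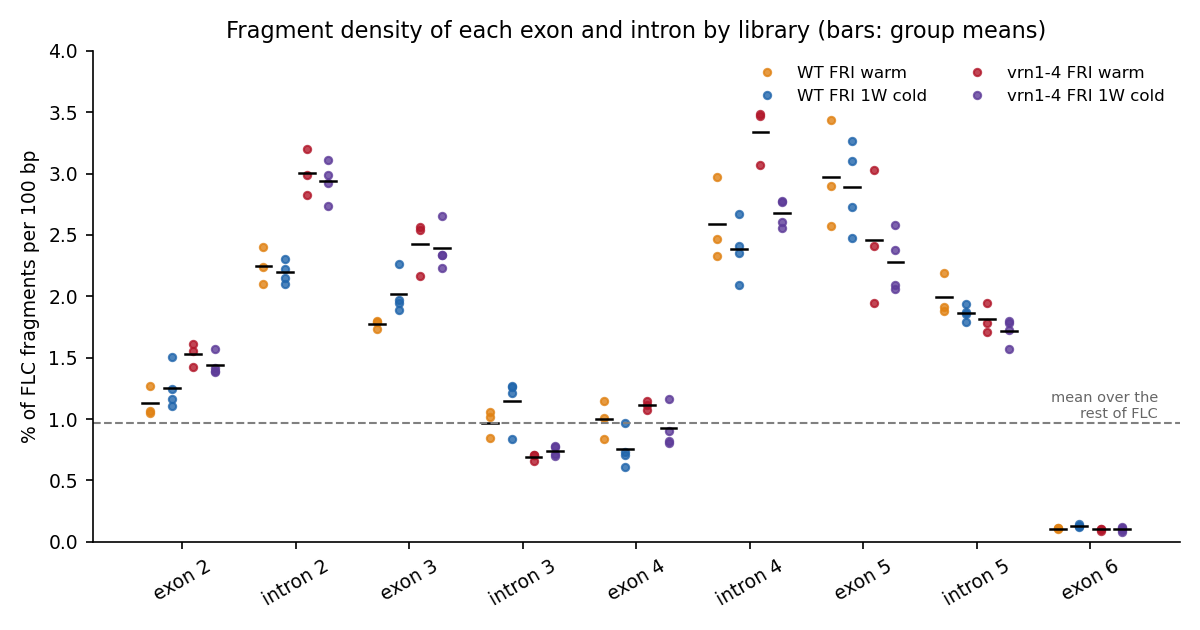
Density of fragment midpoints (% of all *FLC* fragments per 100 bp) in each exon and intron from exon 2 to exon 6, with a point for each library coloured by group, a bar at each group mean, and a dashed line at the mean density over the rest of *FLC*. Intron 2, exon 3, intron 4 and exon 5 lie at 1.73% or above in every library, whereas exon 6 reaches at most 0.149%.

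Position 2, in intron 2 just upstream of exon 3, was the strongest maximum of the interval. Its smoothed height was 5.86% per 100 bp, and 10.5 to 18.0% of the fragments of the interval had their midpoint within 20 bp of it. Positions 5 and 4 followed, with smoothed heights of 3.22 and 2.96% per 100 bp. Position 6 reached 2.02% and position 3 reached 1.24%. Position 1, at 1.74%, was the shoulder of a peak outside the interval, since the most frequent midpoint within 50 bp lay 3756 to 3762 bp from the TSS, in intron 1, in every library. Position 7 in exon 6 reached 0.097% and was barely raised above the stretch around it. The most frequent midpoint within 50 bp of position 7 lay 4571 to 4580 bp from the TSS, in intron 5, in every library.

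**Figure D2:**
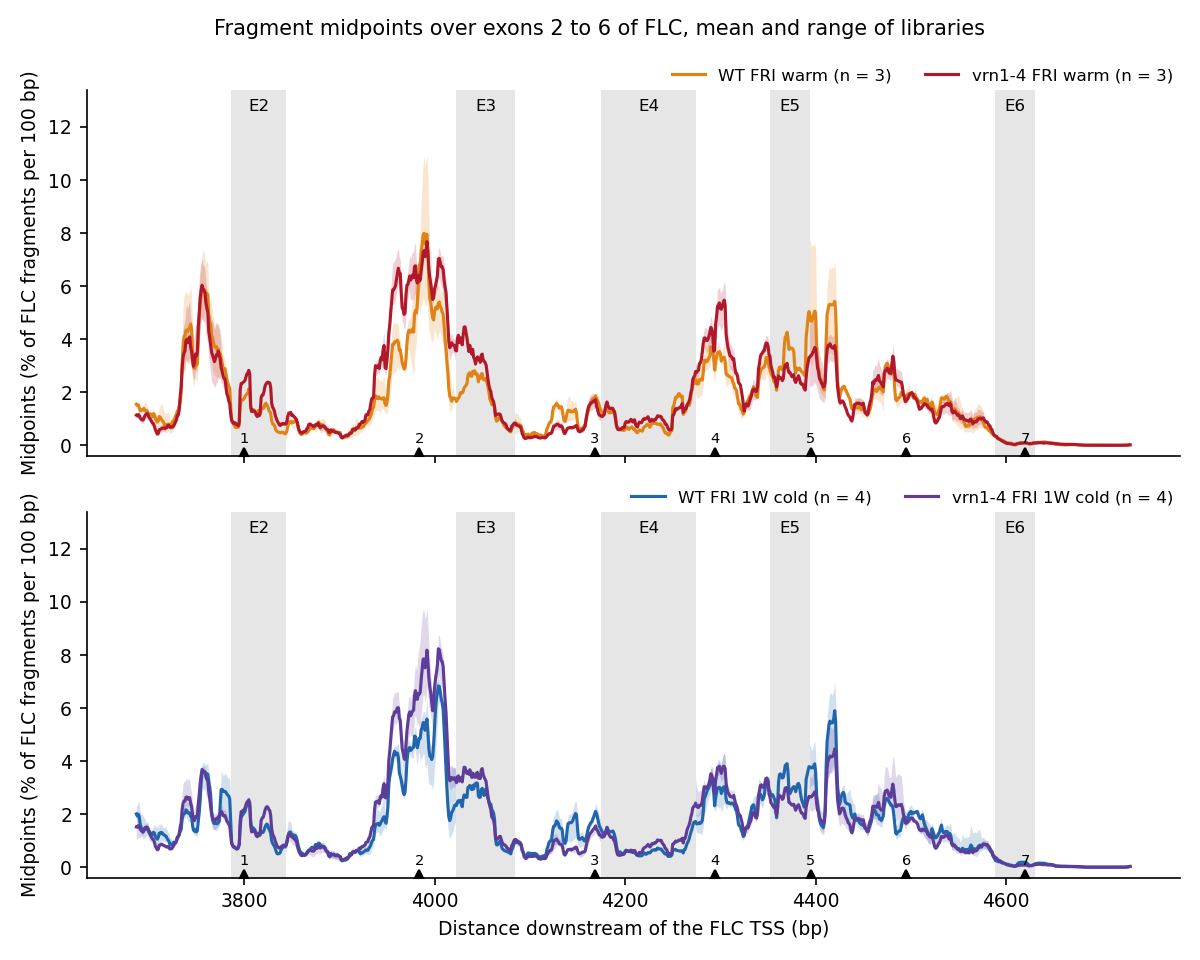
Fragment midpoints (% of all *FLC* fragments per 100 bp, averaged over 11 bp) against the distance downstream of the TSS, in the warm (top) and after 1W cold (bottom), with lines for group means, bands from the lowest to the highest library, grey boxes for exons 2 to 6 (E2 to E6) and triangles for positions 1 to 7. The peak at position 2 is the highest of the interval in all 4 groups, and the *vrn1-4* FRI line runs above WT FRI over most of intron 2 and exon 3 and below it in part of intron 3, at both temperatures.

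Within the broad peaks, the most frequent midpoint took a few values that recurred between libraries. At position 2 it lay 3992 bp from the TSS in all 3 libraries of *vrn1-4* FRI warm and 4004 or 4005 bp in all 4 libraries of WT FRI 1W cold. WT FRI warm had 3989, 3992 and 4005 bp, and *vrn1-4* FRI 1W cold had 4005 bp in replicates 1 and 2, 4004 bp in replicate 3 and 3992 bp in replicate 4. The same stretches were thus used in both genotypes, and no group other than WT FRI 1W cold and *vrn1-4* FRI warm held to 1 of them. At position 5 the most frequent midpoint was 4420 bp from the TSS in all 8 cold libraries of both genotypes, whereas the warm libraries had 4393, 4370 and 4420 bp in WT FRI and 4348, 4399 and 4415 bp in *vrn1-4* FRI. At position 6 it was 4481 bp in all 7 *vrn1-4* FRI libraries and in 1 of the 7 WT FRI libraries, whose others had 4466 to 4476 bp. These modes are given as a description, without a test.

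The share of the interval's fragments within 20 bp of any of the 7 positions was 38.0 to 46.4% over all libraries. It was 43.4 ± 2.77% in WT FRI warm (SD, n = 3), 40.7 ± 1.89% in WT FRI 1W cold (n = 4), 42.7 ± 2.03% in *vrn1-4* FRI warm (n = 3) and 41.1 ± 1.21% in *vrn1-4* FRI 1W cold (n = 4). None of the 4 comparisons between groups passed a two-sided exact permutation test (p = 0.229 to 0.771, each adjusted to 0.514 or more over the 4), and the groups overlapped in each.

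The 5 fragments with the highest mean fraction were found in all 14 libraries and lay at 3 places. The first was the exact 147 bp printed as position 5, which spans exon 5, with a mean of 0.0934% of *FLC* fragments. Its share in the WT FRI warm libraries was 0.328, 0.0481 and 0.122%, against 0.0341 to 0.0901% in *vrn1-4* FRI warm and 0.0351 to 0.151% over the cold libraries, so the mean rested in part on WT FRI warm replicate 1. The fragments chr5:3174960-3175103 and chr5:3174960-3175104, ranked 2 and 4, had the same end in intron 5, 20 bp further from the TSS than that of the first. The third fragment, chr5:3175575-3175719, spanned exon 2, and the last of the 5, chr5:3175076-3175220, ran from exon 4 to exon 5. In the warm, the fragments ranked 2 to 5 did not overlap between genotypes, in both directions. The share of all *FLC* fragments that did so was not counted, so this is not read as particular to these fragments. The second held 0.0731 to 0.137% in WT FRI and 0.0406 to 0.0589% in *vrn1-4* FRI, and the fragment ranked 4 held 0.0501 to 0.0882% and 0.0341 to 0.0388%. The third held 0.0293 to 0.0708% in WT FRI and 0.0734 to 0.129% in *vrn1-4* FRI, where it had the highest mean of the 5, and the last held 0.0104 to 0.0564% and 0.0707 to 0.111%. After cold the genotypes overlapped for each of the 5. For the fragments ranked 2 and 4 and for the last, the overlap came through WT FRI 1W cold replicate 1 alone. Without that library they held 0.112 to 0.149%, 0.0764 to 0.0957% and 0.0173 to 0.0266% in WT FRI. In *vrn1-4* FRI they held 0.0448 to 0.0603%, 0.0371 to 0.0688% and 0.0344 to 0.0618%. The first and the third still overlapped.

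The most frequent fragment ends mark where MNase cut. On the side away from the TSS the 3 leading ends were 4059 bp from the TSS, in exon 3, and 4488 and 4468 bp, in intron 5, with 2.18, 1.56 and 1.52% of the interval's fragments. On the side of the TSS the 3 leading ends were all in intron 2, at 3934, 3909 and 3887 bp, with 2.49, 2.01 and 1.71%. These ranks are of means over all libraries and did not hold within each group. In *vrn1-4* FRI warm the ends at 3934, 3909 and 3887 bp had 0.261 ± 0.012, 0.511 ± 0.040 and 0.375 ± 0.057% of *FLC* fragments (SD, n = 3), against 0.326 ± 0.058, 0.193 ± 0.052 and 0.170 ± 0.063% in WT FRI warm (n = 3). The ends at 3909 and 3887 bp were higher in every *vrn1-4* FRI library than in every WT FRI library at the same temperature, with 0.332 to 0.465% against 0.120 to 0.250% at 3909 bp in the cold. The share of all *FLC* fragment ends that separated in this way was not counted, so this is not read as particular to these ends. On the other side, the end in exon 3 had the highest mean in both *vrn1-4* FRI groups, whereas the end at 4468 bp led in WT FRI warm (0.380 ± 0.271%, with 0.691% in replicate 1) and the end at 4488 bp in WT FRI 1W cold (0.299 ± 0.097%). Over all libraries, the leading ends of the 2 sides lay on either side of position 2. The first or last base of a fragment was A or T in 87.8 to 92.9% of the fragment ends, and the base just outside it in 62.1 to 72.6%, against 62.1% A or T over the interval. MNase is known to cut preferentially next to A and T.
The sequences around the leading end on each side, again in the direction of transcription with the 10 bases inside the fragment in capitals, show the A or T at the first or last fragment base.
End in exon 3, chr5:3175379-3175398: GGTTCACACTatgagctact
End in intron 2, chr5:3175505-3175524: aaatataaaaTGAGGTGGTG

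The share of the interval in the 4 groups was 15.4, 14.7 and 14.2% in WT FRI warm, 14.9, 13.6, 14.4 and 14.8% in WT FRI 1W cold, 16.1, 16.9 and 17.1% in *vrn1-4* FRI warm, and 16.2, 15.7, 14.5 and 15.8% in *vrn1-4* FRI 1W cold. In the warm all *vrn1-4* FRI libraries lay above all WT FRI libraries, and in each other comparison the groups overlapped. The share was 1.13 times as high in *vrn1-4* FRI as in WT FRI in the warm (difference 1.87 percentage points), where 3 libraries against 3 cannot go below the p of 0.1 that the exact permutation test gave. After 1W cold it was 1.08 times as high (difference 1.16 points, exact p = 0.0857). Without *vrn1-4* FRI 1W cold replicate 3, the genotypes no longer overlapped in the cold (difference 1.51 points, exact p = 0.0286). That library was the lowest of its group and the only one below any WT FRI 1W cold library. Leaving it out fixed the separation, and this p is the smallest that 3 against 4 libraries can give, so no conclusion is drawn from it. Cold against warm gave differences of −0.39 points in WT FRI (exact p = 0.486) and −1.11 points in *vrn1-4* FRI (exact p = 0.0857), and all 4 tests adjusted to 0.133 or more. The change with cold did not differ detectably between genotypes, with a difference of −0.06 on the log2 scale and p = 0.574 in an exact permutation of genotype labels within each temperature (1400 arrangements). With each distinct fragment counted once, irrespective of its fraction, the genotype difference was 0.20 points in the warm and 0.27 points in the cold.

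In the comparison of genotypes in the warm, the larger share of the interval in *vrn1-4* FRI lay mainly in intron 2, which held a mean of 5.35 ± 0.33% of *FLC* fragments against 4.00 ± 0.27% in WT FRI (SD, n = 3 each). Exon 2, intron 2, exon 3 and intron 4 held larger shares in *vrn1-4* FRI, by 1.29 to 1.36 times, and intron 3 held a smaller share, by 0.72 times. All 5 passed the test, out of 9 parts of the interval, and 46.7% of the 15 annotated parts of *FLC* (7 of 15) passed it. The share of the interval's parts was close to that of the whole locus, but the 15 include these 9, so the interval is partly compared with itself. Of all parts, 33.3% rose and 13.3% fell. The test was limma on log2(share + 0.0001) fitted over all 15 parts and all libraries, adjusted by Benjamini and Hochberg, and parts with an adjusted p under 0.05 are called. The median log2 difference was 0.17 over the 9 parts and 0.13 over all 15.

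Intron 2 gave the largest shift in absolute share. Its share was 3.74, 4.28 and 3.98% of *FLC* fragments in WT FRI warm and 5.32, 5.03 and 5.69% in *vrn1-4* FRI warm. After cold it was 4.10, 3.74, 3.83 and 3.96% in WT FRI and 5.54, 5.21, 4.87 and 5.32% in *vrn1-4* FRI. Every *vrn1-4* FRI library was thus above every WT FRI library, whether warm or cold, and WT FRI 1W cold replicate 1 lay with its own genotype. The log2 difference was 0.42 ± 0.07 (SE) in the warm (adjusted p = 0.000625 by limma) and 0.42 ± 0.06 in the cold (adjusted p = 0.000134 by limma), about 1.34-fold at both temperatures.

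Intron 3, the short intron with the lowest GC content of the interval (28.9%), went the other way. Its share was 0.948, 0.761 and 0.915% in WT FRI warm and 0.589, 0.638 and 0.639% in *vrn1-4* FRI warm. After cold it was 0.756, 1.09, 1.14 and 1.14% in WT FRI and 0.641, 0.705, 0.695 and 0.630% in *vrn1-4* FRI. The genotypes did not overlap, and WT FRI 1W cold replicate 1 had the lowest value of all WT FRI libraries. The log2 difference was −0.48 ± 0.13 in the warm (adjusted p = 0.00863 by limma) and −0.60 ± 0.12 in the cold (adjusted p = 0.000702), or −0.74 in the cold without that library (adjusted p = 3.24e-06).

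Exon 3, which lies between these introns, held 1.07, 1.11 and 1.11% in WT FRI warm and 1.59, 1.34 and 1.57% in *vrn1-4* FRI warm. After cold the values were 1.40, 1.17, 1.21 and 1.22% in WT FRI and 1.65, 1.45, 1.38 and 1.45% in *vrn1-4* FRI, which overlapped through WT FRI 1W cold replicate 1. The log2 difference was 0.44 ± 0.09 in the warm (adjusted p = 0.00131 by limma) and 0.24 ± 0.07 in the cold (adjusted p = 0.0136).

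Exon 2 held 0.610 to 0.734% in WT FRI warm and 0.826 to 0.934% in *vrn1-4* FRI warm, a log2 difference of 0.44 ± 0.11 (adjusted p = 0.00448 by limma). Intron 4 held 1.81 to 2.32% in WT FRI warm and 2.39 to 2.72% in *vrn1-4* FRI warm, a difference of 0.37 ± 0.10 (adjusted p = 0.00728). Neither overlapped in the warm, and both overlapped in the cold, where exon 2 differed by 0.20 ± 0.09 (adjusted p = 0.0615) and intron 4 by 0.17 ± 0.09 (adjusted p = 0.0785). The difference between the temperatures in these genotype differences did not pass limma for any of the 9 parts (adjusted p = 0.503 to 0.977, none under an unadjusted p of 0.05), nor for any of the 15 parts (0%), so exon 2 and intron 4 are not shown to respond differently in the cold.

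After 1W cold, 5 of the 9 parts again passed between genotypes, with intron 2 and exon 3 higher and intron 3, exon 5 and exon 6 lower in *vrn1-4* FRI. Over all annotated parts 66.7% passed (10 of 15), with 33.3% in each direction, so the interval had no larger share of calls than *FLC* as a whole. Exon 5 held 1.04, 1.15, 1.30 and 1.37% in WT FRI and 0.999, 1.08, 0.880 and 0.866% in *vrn1-4* FRI, which overlapped, with a log2 difference of −0.34 ± 0.14 (adjusted p = 0.0411 by limma). Exon 6 held 0.0510 to 0.0624% in WT FRI and 0.0344 to 0.0511% in *vrn1-4* FRI, a difference of −0.30 ± 0.09 (adjusted p = 0.0140). These are the lowest shares of any part. The call of exon 5 was lost without WT FRI 1W cold replicate 3 or 4 or without *vrn1-4* FRI 1W cold replicate 1, 3 or 4 (adjusted p = 0.0509 to 0.108), and that of exon 6 without WT FRI 1W cold replicate 3 (adjusted p = 0.0534). Without WT FRI 1W cold replicate 1 the count rose to 8 of 9, with exon 2, exon 4 and intron 4 also higher, and without WT FRI 1W cold replicate 3 it was 3. The counts over all 15 parts are not given for these fits, so neither is read as particular to the interval.

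**Figure D3:**
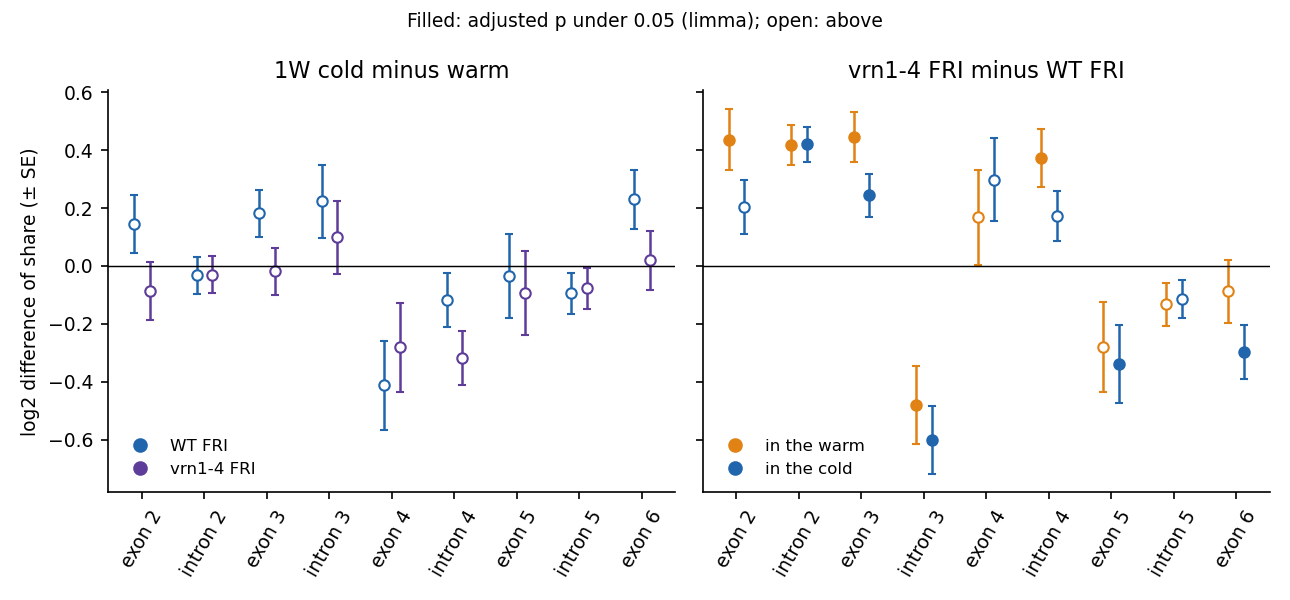
Difference of the share of each exon and intron on the log2(share + 0.0001) scale, with bars of 1 SE, for 1W cold minus warm in each genotype (left) and *vrn1-4* FRI minus WT FRI at each temperature (right). Filled points passed limma (adjusted p under 0.05 over the 15 annotated parts) and open points did not. No point on the left is filled, and on the right intron 2 lies at 0.42 at both temperatures and intron 3 at −0.48 and −0.60.

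In bins of 100 bp, fitted over 96 bins of the target region, the genotype difference fell from intron 2 to intron 3 at both temperatures and around intron 4 in the warm. No bin passed at exon 2, or at exon 5 or exon 6 in the cold, although these parts were called. The bin with exon 2, chr5:3175582-3175681, gave 0.17 ± 0.10 in the warm (adjusted p = 0.208 by limma), where the genotypes overlapped. In the warm 4 of the 9 bins of the interval passed limma, against 38.5% of all bins (37 of 96), and in the cold 3 of 9 passed, against 42.7% (41 of 96). Among all bins 9.38% rose and 29.2% fell in the warm and 12.5% rose and 30.2% fell in the cold, whereas in the interval 3 rose and 1 fell in the warm and 2 rose and 1 fell in the cold. The bin chr5:3175482-3175581, in intron 2, gave 0.60 ± 0.14 in the warm (adjusted p = 0.00501 by limma) and 0.41 ± 0.12 in the cold (adjusted p = 0.0124). The bin next to it, chr5:3175382-3175481, from intron 2 into exon 3, gave 0.38 ± 0.10 and 0.39 ± 0.09 (adjusted p = 0.0125 and 0.00460). The bin chr5:3175282-3175381, from exon 3 into intron 3, gave −0.38 ± 0.13 and −0.47 ± 0.12 (adjusted p = 0.0419 and 0.00552). The bin chr5:3175082-3175181, around intron 4, passed only in the warm, with 0.29 ± 0.11 (adjusted p = 0.0495), and the difference between temperatures was not past the threshold (−0.18 ± 0.14, adjusted p = 0.825). With log2 values centred on the median bin of each library, the median difference over all bins in the warm moved from −0.15 to 0.01. Over all bins 13 then rose and 15 fell in the warm (17 and 26 in the cold), and in the interval 3 rose and none fell in the warm, since the bin chr5:3175282-3175381 lost its call there. The count in the warm was 1 without WT FRI warm replicate 3 and 2 without any 1 of the 3 *vrn1-4* FRI warm libraries. It was 3 without WT FRI warm replicate 1 or without replicate 2.

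The base composition of the libraries moved with genotype as well. The mean GC content of fragments outside the interval was 35.79, 36.10 and 35.26% in WT FRI warm and 37.96, 37.29 and 37.53% in *vrn1-4* FRI warm. In the cold it was 35.77, 34.50, 34.80 and 35.00% in WT FRI and 36.89, 36.44, 35.99 and 37.52% in *vrn1-4* FRI. The genotypes did not overlap at either temperature. The 4 parts that rose in the warm had a GC content of 38.2 to 44.8%, and the part that fell had 28.9%. The 2 parts of highest GC content were not among them, since exon 4 (47%) was at 0.17 and exon 6 (45.2%) at −0.09 on the log2 scale in the warm, and exon 6 was lower in *vrn1-4* FRI in the cold. The mean GC content of fragments outside the interval was then used as a covariate in limma, an alternative chosen after seeing the data. None of the 5 parts called in the warm kept its call under it. Their log2 differences were 0.31 for exon 2, 0.25 for intron 2, 0.21 for exon 3, −0.01 for intron 3 and 0.22 for intron 4 (adjusted p = 0.119 to 0.983 by limma). In the cold no part passed, with intron 2 at 0.27 (adjusted p = 0.0649). Exon 4, named after its values were seen, was the only part to pass in the warm under the covariate, at −0.58 (adjusted p = 0.00775), against 0.17 without it (adjusted p = 0.352). Because GC content and genotype separate the same libraries, their parts in these differences cannot be told apart. The calls also depended on how fragments were weighted. With each distinct fragment counted once no part passed in the warm (intron 2 at 0.01, intron 3 at −0.17), and intron 3 alone passed in the cold, at −0.20 (adjusted p = 0.00666). Distinct *FLC* fragments numbered 14166 to 90960 per library in WT FRI warm and 63003 to 82621 in *vrn1-4* FRI warm. The effect of these numbers on this weighting was not tested. With fragments counted by their bases in each part, intron 2 and exon 3 kept their calls at both temperatures, and intron 3 kept its call in the cold.

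**Figure D4:**
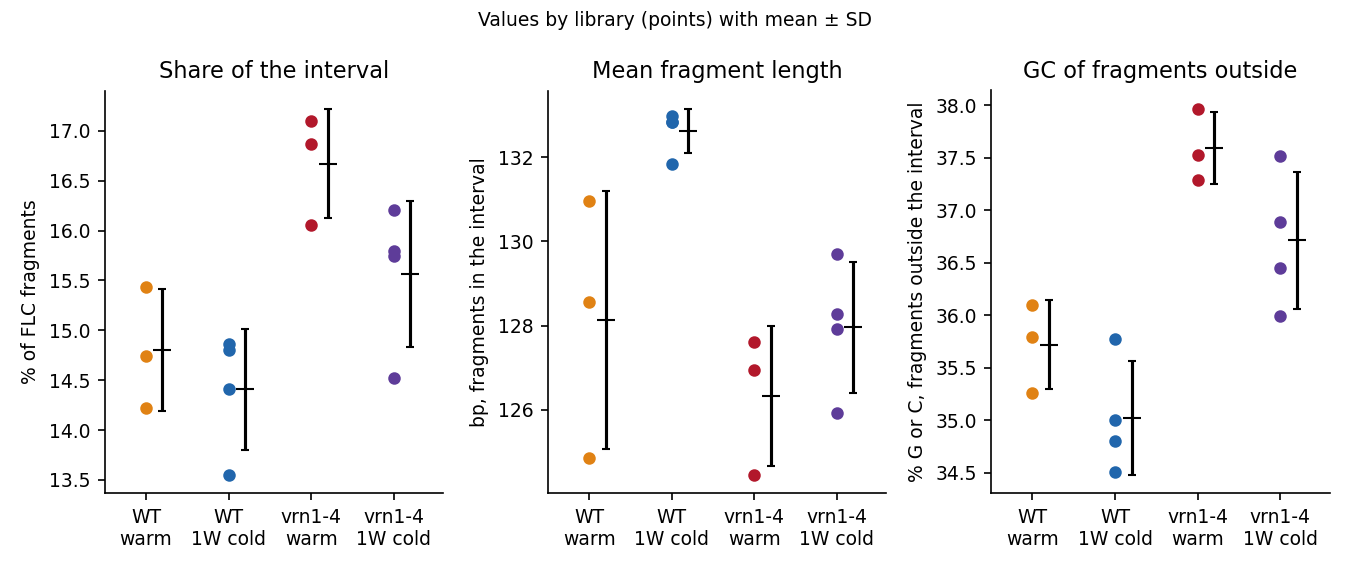
Share of the interval (% of *FLC* fragments, left), mean length of its fragments (bp, middle) and mean GC content of fragments outside it (%, right) for each library by group, with mean and SD beside the points. All axes start above 0. WT FRI 1W cold has the longest fragments, from 131.8 to 133.0 bp, and the GC content of *vrn1-4* FRI lies above that of WT FRI at each temperature.

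The week of cold changed no part of the interval past the threshold. In WT FRI none of the 9 parts passed limma, and none of the 15 did (0%), while 3 of the 9 were under an unadjusted p of 0.05. These were exon 4 at −0.41 ± 0.15, exon 3 at 0.18 ± 0.08 and exon 6 at 0.23 ± 0.10, each with an adjusted p of 0.105. Exon 3 and exon 6 did not overlap between warm and cold in WT FRI, and overlap was not counted over all 15 parts. Exon 6 held only 15 to 144 distinct fragments in the WT FRI warm libraries. Both changes reversed under another counting, that of exon 3 with distinct fragments counted once and that of exon 6 by bases. In *vrn1-4* FRI none of the 9 passed, nor any of the 15 (0%), and intron 4 alone was under an unadjusted p of 0.05. Its share was 2.39, 2.72 and 2.70% in the warm and 2.16, 2.17, 1.99 and 2.03% after cold, which did not overlap, with a log2 difference of −0.32 ± 0.09 (adjusted p = 0.0698 by limma).

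In bins of 100 bp the same held, with 0 of the 9 bins past limma in WT FRI, against 2.08% of all bins, and 0 of 9 in *vrn1-4* FRI, against 0% of all bins. Under an unadjusted p of 0.05 there were 1 and 2 of the 9. Without WT FRI 1W cold replicate 1, 2 parts passed in WT FRI, intron 3 at 0.36 (adjusted p = 0.00886) and exon 4 at −0.54 (adjusted p = 0.0119), and 1 bin passed, chr5:3175282-3175381 at 0.31 (adjusted p = 0.0478). Without WT FRI warm replicate 3, exon 4 passed at −0.53 (adjusted p = 0.0418). Counts over all parts or bins are not given for these fits, so these calls are not read as particular to the interval. For the change with cold between genotypes, 0 of the 9 bins passed, none was under an unadjusted p of 0.05, and 1.04% of all bins passed.

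Fragments of the interval were longest in WT FRI after cold. Only lengths of 100 to 150 bp were deposited. The mean length was 128.6, 124.9 and 131.0 bp in WT FRI warm, 131.8, 133.0, 132.8 and 132.8 bp in WT FRI 1W cold, 126.9, 124.5 and 127.6 bp in *vrn1-4* FRI warm, and 128.3, 127.9, 129.7 and 125.9 bp in *vrn1-4* FRI 1W cold. WT FRI 1W cold lay above every other group without overlap. It was 4.49 bp longer than WT FRI warm and 4.67 bp longer than *vrn1-4* FRI 1W cold (exact permutation p = 0.0286 for each, the smallest these designs give, and 0.0571 after adjustment over 4 comparisons). Without WT FRI warm replicate 2 the difference from WT FRI warm was 2.86 bp. In *vrn1-4* FRI the cold libraries were 1.62 bp longer than the warm ones (exact p = 0.286), and in the warm the genotypes differed by −1.79 bp (exact p = 0.4). The groups overlapped in those comparisons.

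Lengths of 140 to 150 bp made up 45.2 to 48.3% of the interval's fragments in WT FRI 1W cold, 26.2 to 41.6% in WT FRI warm, 23.9 to 31.7% in *vrn1-4* FRI warm and 28.2 to 38.1% in *vrn1-4* FRI 1W cold. The same shift was present in the rest of *FLC*, where mean lengths were 128.2 ± 2.60 bp in WT FRI warm (SD, n = 3) and 132.4 ± 0.52 bp in WT FRI 1W cold (n = 4). Within each library the interval differed from the rest by −0.63 to 0.44 bp, with a mean of −0.02 ± 0.31 bp (SD, n = 14, p = 0.841 in a permutation test over all sign flips). The differences between groups in the interval were therefore shared with the rest of each library.

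Length also differed between positions. Fragments within 20 bp of position 2 averaged 125.1 ± 2.18 bp and those of position 6 averaged 122.5 ± 4.01 bp, whereas those of positions 4 and 5 averaged 132.5 ± 2.64 and 132.7 ± 2.70 bp (SD, n = 14). Exon 4 fragments were the longest of any part, at 134.2 ± 2.08 bp, and those of intron 2 and exon 6 were the shortest, at 126.5 ± 2.66 and 126.7 ± 4.29 bp. WT FRI 1W cold had the longest mean of the 4 groups at each of the 7 positions, with 127.4 ± 0.76 bp at position 2, 135.6 ± 0.34 bp at position 4 and 135.6 ± 0.32 bp at position 5 (SD, n = 4).

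Profiles over the interval were compared between all pairs of libraries. The median correlation of profiles averaged over 11 bp was 0.949 over the 18 pairs within a group (0.8289 to 0.9928), 0.939 over the 24 pairs of 1 genotype at different temperatures (0.768 to 0.977), 0.882 over the 25 pairs of different genotypes at 1 temperature (0.752 to 0.945) and 0.847 over the 24 pairs that differed in both (0.765 to 0.954). The ranges overlapped. WT FRI 1W cold replicate 1 went the other way, with a median of 0.791 with its own genotype at the other temperature and 0.933 with the other genotype, as did WT FRI warm replicate 2, with 0.828 and 0.846. Without these libraries, left out after seeing the data because of their low likeness to their groups, the medians were 0.980 over 13 pairs, 0.951 over 18 pairs, 0.883 over 18 pairs and 0.846 over 17 pairs. These values are a description, since the points are neighbouring bases.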

How the data were processed

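Libraries were made from MNase-digested chromatin of whole seedlings, with *FLC* captured by baits. According to the submitters' processing notes, fastp, Bowtie2, SAMtools 1.5 and the TAIR10 genome were used, and the authors kept fragments of 100 to 150 bp. The deposited value of each fragment is the fraction of all *FLC* fragments of its library that have the same start and end, so each library sums to 1. Replicates were not pooled. Read numbers are not given in the sources used here, so the depth is unknown and no counting interval is given. Only the number of distinct fragments, 14166 to 124173 per library, bears on precision.

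Groups came from the labels, which name biological replicates without saying whether they are separate cultures, so p-values measure the spread between these samples. Members and lists were chosen with earlier results of these data known. A fragment was placed by its midpoint. Shares of the 15 annotated parts and of 96 bins of 100 bp with a mean share of at least 0.0001 were fitted as log2(share + 0.0001) with limma 3.58.1 (R 4.3.3) over all 4 groups, with Benjamini-Hochberg adjustment over all parts or bins. Fold changes are on that scale, which understates changes of low shares. The share, the mean length and the share near positions were compared by two-sided exact permutation of libraries, where p is the share of arrangements with an absolute difference at least as large, adjusted over 4 comparisons. Permutations were run with scipy 1.17.1 on tables built with pandas 2.3.3 under Python 3.11.15 (numpy 2.4.6), and figures were drawn with matplotlib 3.10.9. The fits were tested on simulated data.

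All 9 parts, the 9 bins centred in the interval and all profile maxima at least 100 bp apart are named, with the 5 fragments and the 3 ends on each side (at least 20 bp apart) of highest mean fraction. Alternatives changed the placement, weighting and lengths of fragments, the borders and bins, the reference, the added constant, the low-value filter, the centring, the libraries and the replicate block. GC content as a covariate was added after seeing the data.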

Additional observations from a re-analysis of the deposited data

Results flagged for a closer look

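Within the groups of 4 libraries, 48 sets of values of the interval were examined for a library far from the other 3, judged by the gap to its nearest neighbour over the range of the group. Chance gives such a gap in about 1 of 20 sets, and 4 were found. In 3 of them the distant library was WT FRI 1W cold replicate 1. Its mean fragment length was 131.8 bp, against 132.8 to 133.0 bp in the other 3 libraries. Its share in intron 3 was 0.756%, against 1.09 to 1.14%. Its share of the fragment chr5:3175076-3175220, from exon 4 to exon 5, was 0.0774%, against 0.0173 to 0.0266%. The remaining set was the share of *FLC* fragments within 20 bp of position 6 in intron 5, where *vrn1-4* FRI 1W cold replicate 4 had 1.05%, against 0.781 to 0.812% in the other 3 libraries.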

How the results depend on the processing

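The added constant, the filter on low bins and inward borders changed no count of calls by over 1.5 times and no direction. The values that changed are given here, and where no cause is named the cause was not tested. The share of the interval in *vrn1-4* FRI differed between cold and warm by −1.79 points with borders moved 50 bp outwards (exact p = 0.0286). Between genotypes in the cold the share differed by 2.01 points relative to the annotated gene (exact p = 0.0286). When 1 library was left out, this genotype difference ran from 0.873 to 1.51 points and passed in 1 of 8 cases. That case was without *vrn1-4* FRI 1W cold replicate 3 (exact p = 0.0286), where the choice of library fixed the separation. The difference between genotypes in the change of the share with cold became 0.00356 (log2) with each distinct fragment counted once. The mean length of WT FRI in the cold against the warm lay between 2.86 and 5.91 bp when 1 library was left out, designs of 2 against 4 or 3 against 3 that cannot go below 0.0667 or 0.1. The share near positions changed sign at 30 bp for *vrn1-4* FRI cold against warm (0.0381 points), with lengths of 120 to 150 bp between genotypes in the warm (1.21 points) and with distinct fragments counted once in the cold (−1.33 points), and ran from −1.78 to 0.892 in the warm and from −0.537 to 0.850 in the cold when 1 library was left out. The difference in length from the rest of *FLC* was 0.326 bp with distinct fragments counted once (p = 0.000244, permutation), 0.0565 bp against the rest of the annotated gene, and −0.0526 to 0.0296 bp when 1 library was left out.

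Between genotypes, the count of bins called in the warm was 5 of 17 in bins of 50 bp, 1 of 8 with bins started 36 bp later, 0 with distinct fragments counted once, 0 with GC content as a covariate and 1 to 3 when 1 library was left out. In the cold it was 3 of 17 in bins of 50 bp and 0 with distinct fragments or with GC content. The count of parts called in the warm was 2 by bases, 0 with distinct fragments and 1 with GC content, and in the cold 3 by bases, 1 with distinct fragments, 0 with GC content and 3 to 8 when 1 library was left out. For cold against warm, leaving out 1 library gave 0 to 2 parts and 0 to 1 bins in WT FRI, and counting by bases gave 3 parts in *vrn1-4* FRI, exon 2 at −0.33, exon 4 at −0.30 and intron 4 at −0.27 (log2). In WT FRI cold against warm, exon 3 reversed to −0.15 with distinct fragments and exon 6 to −0.15 by bases. With GC content as a covariate exon 4 reversed to 0.0685 for *vrn1-4* FRI cold against warm, −0.58 between genotypes in the warm and −0.37 in the cold. Counts over all parts or bins are not given for these alternatives, so none is read as particular to the interval.

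Libraries with the same replicate number deviated from their group means with correlations of −0.59 to 0.60 over 13 pairs, of which 5 were over 0.1, and in no comparison were all pairs over 0.1, so the numbers were not taken as pairing. With the replicate block, the length difference was 4.43 bp for WT FRI cold against warm (p = 0.25, exact sign flips) and −4.67 bp between genotypes in the cold (p = 0.125), where the smallest p possible exceeds 0.05, and bins called in the warm fell to 2. Without read numbers, counting noise could not be separated from the spread between libraries.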
